A study of Mus musculus with 21 samples.

Results

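The 39 genes described here encode the proteins that copy DNA in dividing cells: the MCM2-7 helicase, the factors that load and start it, the sliding clamp and its loader, the replicative polymerases with primase, the enzymes that join Okazaki fragments, the single-strand binding protein RPA, and 4 enzymes that make deoxynucleotides. Members were taken by symbol from a list of replication genes, a rule that uses no measured value. The list itself was chosen with earlier results of these data known. All 39 were found among the 14273 genes of the table, had a value in each of the 21 libraries and passed the filter on low values in every comparison.

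The libraries were made from spleen cells of C57BL/6 mice and fell into 7 groups with 3 libraries each. Sorting for Ter119, an antigen of erythroid cells, and CD71, the transferrin receptor of immature erythroid cells, gave 6 groups: CD45+ and CD45- cells of tumor-bearing mice, of mice with anemia and of neonatal mice, CD45 being a surface phosphatase of leukocytes and early erythroid precursors. The seventh group was MDSC (myeloid-derived suppressor cells), sorted from tumor-bearing mice as CD11b+Gr1+. The series compares CD45+ cells that suppress immune responses with other cell types and across these states. The labels give neither the tumor, the way anemia was produced, nor an age in days, and nothing in them ties a library to an animal of its own. P-values here therefore measure how libraries of a group vary, and that variation may be purely technical. The extraction text names retinas whereas the tissue label is spleen.

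Replication is prepared in G1, when the origin recognition complex, Cdc6 and Cdt1 place a double ring of Mcm2 to Mcm7 on DNA. In S phase Cdc45 and the GINS complex join MCM2-7 to form the active helicase, RPA coats the unwound strand, polymerase alpha and primase lay down primers, and polymerases delta and epsilon extend them on the PCNA clamp. Many of these genes are transcribed at the G1/S transition through E2F factors, and erythroid precursors in bone marrow and spleen pass through fast S phases as they mature.

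Promoter windows are shown because E2F control is the best-known feature that these genes have in common. RefSeq windows (build GRCm38.p6) reaching from 250 bases before to 50 bases after an annotated start could be matched by symbol for 32 of the 39 members. Any of TTTCGCGC, TTTGGCGC, TTTCCCGC and TTTGCCGC, core forms of the E2F sequence searched on both strands, lay in the windows of 12 of these 32 members (37.5%) and of 704 of all 27025 genes with a window (2.6%). The pentamer CCAAT, bound by NF-Y and also searched on both strands, was found for 22 members (68.8%) and 41.1% of all genes. Each line below gives 70 bases from the part of the window before the start, read 5′ to 3′ on the strand of the gene. E2F-type letters of either strand are in capitals. The Orc1 and Rfc3 lines end next to the start, and the others end further upstream, the Mcm7 line at base 138. Not all matches are shown: the window of Mcm6 held 3 and those of Mcm7 and Rfc3 held 2 each, where the line shows 1. Orc1, Cdc6, Mcm6, Mcm7 and Pola1 were lower in CD45+ than in CD45- cells of all 3 states, Mcm5 and Gins3 in some, and Rfc3 in none.
Orc1, chr4:108579384-108579453, + strand: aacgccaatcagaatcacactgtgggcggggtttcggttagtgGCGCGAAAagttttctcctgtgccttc
Cdc6, chr11:98907971-98908040, + strand: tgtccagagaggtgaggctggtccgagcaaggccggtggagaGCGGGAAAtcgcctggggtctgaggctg
Mcm6, chr1:128359725-128359794, - strand: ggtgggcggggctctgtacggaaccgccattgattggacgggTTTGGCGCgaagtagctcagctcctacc
Mcm7, chr5:138172021-138172090, - strand: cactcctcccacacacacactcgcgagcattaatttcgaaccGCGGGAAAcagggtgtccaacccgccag
Pola1, chrX:93632266-93632335, - strand: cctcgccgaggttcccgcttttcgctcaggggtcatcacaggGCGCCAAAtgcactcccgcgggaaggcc
Mcm5, chr8:75109318-75109387, + strand: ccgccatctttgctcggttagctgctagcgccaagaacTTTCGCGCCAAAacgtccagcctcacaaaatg
Gins3, chr8:95633476-95633545, + strand: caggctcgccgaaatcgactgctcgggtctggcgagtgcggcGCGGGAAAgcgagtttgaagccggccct
Rfc3, chr5:151651209-151651278, - strand: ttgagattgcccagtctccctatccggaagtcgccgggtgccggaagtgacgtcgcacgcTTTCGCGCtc
In the Mcm5 line 2 of the motifs run into each other, TTTCGCGC on the strand shown and TTTGGCGC on the opposite one. The other members with a match were Mcm3, Cdt1, Pold1 and Lig1, and the windows of Tk1, Tyms, Fen1, Mcm2 and Pcna held none of the 4 motifs. A match describes letters in a window and is not a measured binding site.

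Values are the deposited log2 numbers taken out of the log, on a scale that no source used here names, so levels of different genes are not ranked. They summed to 227961 to 349261 per library, and because read numbers are not given no counting error can be attached. Haemoglobin genes held 11.2% to 46.2% of the sum in CD45- libraries, 1.29% to 14.9% in CD45+ libraries and at most 0.49% in MDSC, and replicate 3 had the lowest share in all 7 groups. Ter119+CD71+CD45+ libraries also held leukocyte transcripts: 12 neutrophil markers summed to 12000 to 30900 in tumor CD45+ against 32.9 to 383 in tumor CD45- libraries, and 7 B cell markers to 687 to 841 in anemia CD45+ against 2.27 to 10.2 in anemia CD45- libraries. In the same tumor groups 10 erythroid markers summed to 4230 to 8090 and 22400 to 63200, and no marker of these lists was at 0 throughout a group. In each of the 3 states all 12 neutrophil and all 7 B cell markers were higher in CD45+ cells and all 10 tested erythroid markers were lower. In such bulk samples fewer cells of a type and less RNA per cell cannot be told apart, and the part of cell mixture in the differences below was not tested.

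Replicate 3 stood apart for the replication genes. Among CD45+ cells it was the lowest library of its group for 37 of 39 members in tumor-bearing mice, 32 in anemia and 27 in neonates. In CD45- cells it was the highest for 38 members in tumor and 35 in anemia, but the lowest for 22 in neonatal cells. Over the 11294 genes that reach 1 in 3 or more of the 21 libraries, it was the lowest for 35.6% in tumor CD45+, 39.8% in anemia CD45+, 32.7% in neonatal CD45+ and 30.3% in neonatal CD45- cells. It was the highest for 62.4% of these genes in tumor CD45- and 57.3% in anemia CD45- cells. The members' median ratio of replicate 3 to the mean of replicates 1 and 2 was 1.79 in tumor CD45- and 1.70 in anemia CD45- cells, where 20 mitosis genes had medians of 0.99 and 0.85. In tumor CD45+ cells the same ratios were 0.62 for the members and 0.42 for the mitosis genes. Orc2, which encodes a core subunit of the origin recognition complex, reached 37.9 in replicate 3 of tumor CD45- cells against 13.7 and 14.7 in the others, while Orc1 of the same complex read 33.2 against 29.8 and 28.6. The wide gap between CD45+ and CD45- cells therefore includes libraries numbered 3 that lay outward on both sides in tumor and anemia, and the counts of members called are also given without all of them, an alternative added after the data were seen. The shares of all genes called belong to fits of all libraries, and none is given for fits with libraries left out.

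**Figure D1:**
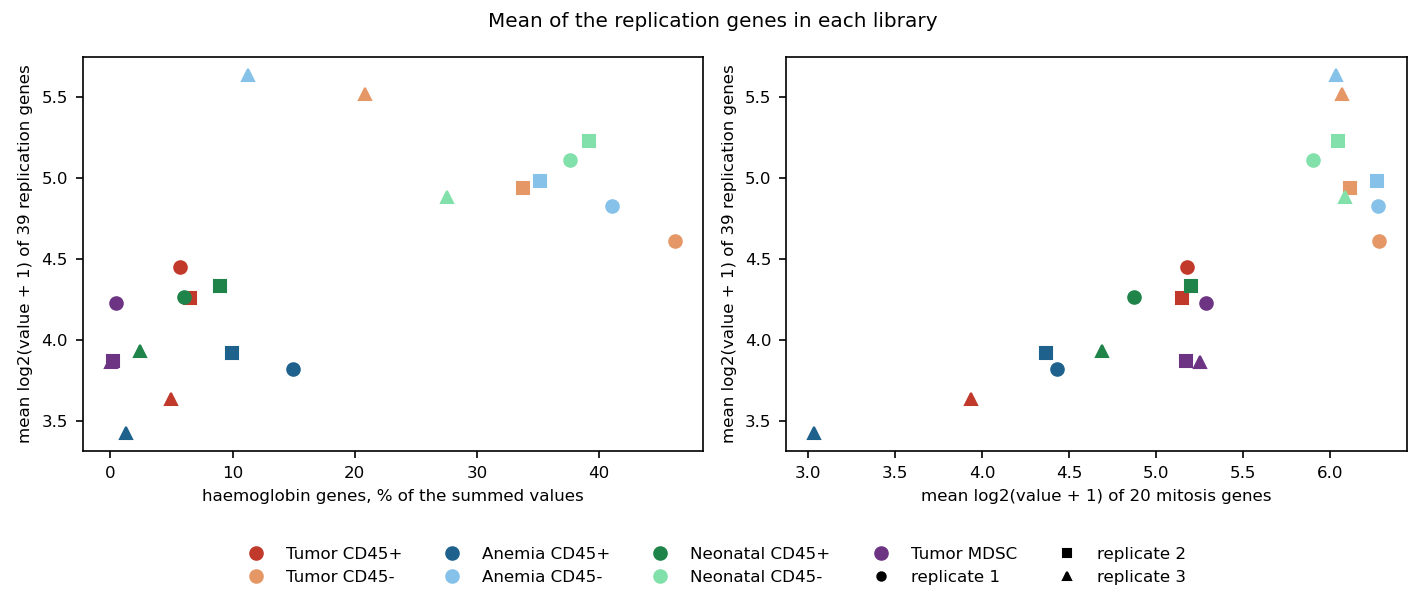
Mean log2(value + 1) of the 39 replication genes in each of the 21 libraries (vertical axis), against the share of haemoglobin genes in the summed values in percent (left) and against the mean log2(value + 1) of 20 mitosis genes (right). Colours mark groups and symbols replicate numbers; CD45- libraries lie between 4.61 and 5.64 and the CD45+ and MDSC libraries between 3.43 and 4.45, with replicate 3 (triangles) highest in tumor and anemia CD45- and lowest in all 3 CD45+ groups.

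Replication genes were lower in CD45+ than in CD45- Ter119+CD71+ cells in every state. Of the 39 members, 24 were lower and 0 higher in tumor-bearing mice, where 10.9% of the 11195 tested genes were lower and 50.2% higher. In mice with anemia 31 were lower and 0 higher, against 11.3% lower and 47.4% higher of all genes. In neonatal mice 22 were lower and 0 higher, against 10.3% lower and 49.6% higher. Calls are adjusted p below 0.05 in limma on log2(value + 1), a scale that understates the change of low genes.

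The members' median log2 difference was -1.01 in tumor, -1.48 in anemia and -0.91 in neonatal mice, where the median of all genes was 0.75, 0.68 and 0.75. All 39 members lay below the median gene in each state. The median gene moves with the scaling: with median-ratio factors it was 0.06 in tumor-bearing mice and with quantile normalization -0.08, and the split of all genes into higher and lower calls went from 5621 and 1218 to 3556 and 2852 or to 2617 and 3060. Relative to the median gene the members' median in tumor-bearing mice was -1.75 as deposited, -1.97 and -1.31 under these scalings, and -1.85 with haemoglobin genes left out. With median-ratio factors 37 members were lower in tumor, 39 in anemia and 38 in neonates, so that which members miss the threshold depends on the scaling. Under these scalings the split was 3278 and 2812 or 2647 and 2990 in anemia and 3303 and 2692 or 2663 and 2808 in neonates.

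In 20 members the difference passed in all 3 states, in 5 in a pair of them, in 7 in a single one and in 7 in none. All 24 members lower in tumor were among the 31 lower in anemia, and 20 of those 24 were among the 22 lower in neonates. The CD45+ libraries lay wholly below the CD45- libraries for 23 members in tumor (12.5% of all genes), 33 in anemia (13.5%) and 22 in neonatal mice (12.0%). Without the libraries numbered 3, 16 members were lower and 3 higher (Rfc1, Rfc2 and Rpa3) in tumor, 28 lower in anemia and 25 lower in neonatal mice. Leaving out tumor CD45+ replicate 3 alone brought the count in tumor-bearing mice to 15. When the libraries numbered 3 were left out, the CD45+ libraries lay wholly below the CD45- libraries for 23, 33 and 32 members. Members lying wholly above were not counted there, though Rfc1, Pold1 and Rpa3 did so in tumor. With fewer libraries a lack of overlap is easier to reach. The share of all genes was not counted in that setting, so these counts have no background beside them. Through every single library left out, both scalings, other pseudocounts, the haemoglobin-free values, the replicate block and the omission of all replicates 3, 13 of the 24 tumor calls, 26 of the 31 anemia calls and 14 of the 22 neonatal calls were kept.

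**Figure D2:**
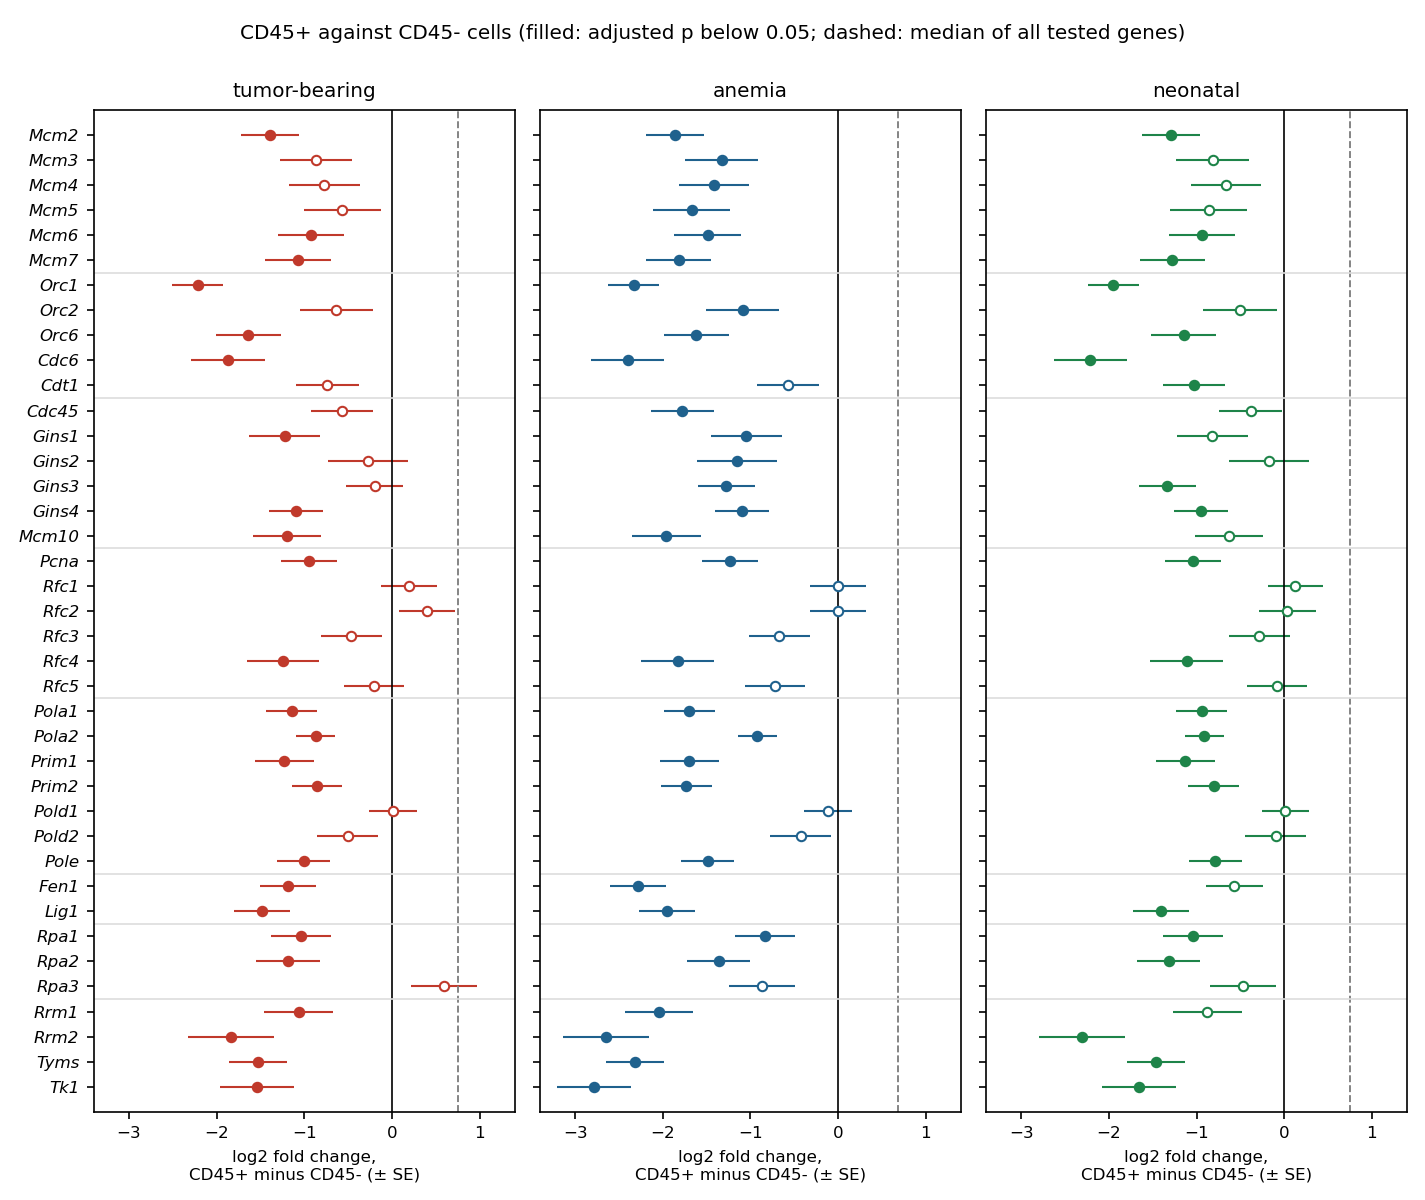
Log2 fold change of each member, CD45+ minus CD45- cells, with its standard error (bars), in tumor-bearing, anemic and neonatal mice; filled points have an adjusted p below 0.05 and the dashed line is the median of all tested genes. Nearly all points lie left of 0 and all lie left of the dashed line, with Orc1, Cdc6, Rrm2 and Tk1 far left and Rfc1, Rfc2 and Pold1 near 0.

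Licensing factors held the largest difference in tumor-bearing mice. Orc1, the large ATPase subunit of the origin recognition complex, read 7.49, 7.96 and 3.10 in tumor CD45+ libraries and 29.8, 28.6 and 33.2 in CD45- libraries. In anemia it read 6.49, 5.58 and 3.68 against 28.7, 28.4 and 32.5, and in neonates 6.79, 7.91 and 4.07 against 26.6, 26.9 and 25.4. The groups did not overlap in any state and the CD45- values varied little, with log2 differences of -2.21 ± 0.29 (SE, n = 3 per group; adjusted p = 5.5e-06) in tumor, -2.33 ± 0.29 (3.2e-06) in anemia and -1.95 ± 0.29 (2.4e-05) in neonates. Cdc6, the ATPase that recruits the helicase to origins, read 13.6, 9.59 and 4.11 in tumor CD45+ and 35.5, 24.1 and 41.1 in tumor CD45- libraries. Its log2 differences were -1.87 ± 0.42 (adjusted p = 0.00099), -2.40 ± 0.42 (0.00011) and -2.21 ± 0.42 (0.00024). Orc6, the small subunit of the complex, was also lower in each state, with log2 differences of -1.64, -1.62 and -1.15. Orc2 passed in anemia (-1.09, adjusted p = 0.034, against -0.63 and -0.51), and Cdt1, the loading factor that geminin blocks, in neonates (-1.03, adjusted p = 0.02, against -0.74 in tumor and -0.57 in anemia). Each of these calls was lost without any of several single libraries, namely any anemia CD45+ library or anemia CD45- replicate 3 for Orc2, and neonatal CD45+ replicate 3 or CD45- replicate 1 or 2 for Cdt1. The neonatal call of Orc6 was lost without neonatal CD45+ replicate 3 or CD45- replicate 2. With either median-ratio factors or quantile normalization, Orc2 and Cdt1 passed as lower in all 3 states. The role had 3, 4 and 4 of 5 members lower as deposited, and 3, 3 and 4 without the libraries numbered 3. For Orc2 and Cdt1 the test of a difference between states did not pass (limma interaction, adjusted p from 0.66 to 1.0).

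Of the 6 MCM2-7 subunits 3 were lower in tumor, 6 in anemia and 3 in neonatal mice, namely Mcm2, Mcm6 and Mcm7 in each. Mcm2 read 37.4, 34.2 and 19.6 in tumor CD45+ and 56.1, 74.0 and 117 in tumor CD45- libraries. In anemia it read 26.4, 32.5 and 17.5 against 75.9, 88.8 and 118, and in neonates 34.7, 34.4 and 22.7 against 88.8, 83.4 and 57.5. The libraries of the 2 fractions never overlapped, and the log2 differences were -1.39 ± 0.33 (adjusted p = 0.0017), -1.86 ± 0.33 (0.00014) and -1.30 ± 0.33 (0.0029). Mcm7 differed by -1.07, -1.82 and -1.28, and its tumor call was lost without replicate 3 of either tumor fraction. Mcm6 differed by -0.92 in tumor with overlapping libraries, and its adjusted p of 0.044 became 0.051 with the replicate number as a block, within a range of 0.00015 to 0.19 over 29 alternatives. Mcm3, Mcm4 and Mcm5 ranged from -0.57 to -0.87 in tumor and neonatal mice without passing, and from -1.33 to -1.67 in anemia, where they passed, Mcm3 not without anemia CD45- replicate 3. With median-ratio factors they passed as lower in tumor and neonatal mice too. Under quantile normalization Mcm3 and Mcm4 passed in tumor, and none of them in neonates. Without haemoglobin genes Mcm3 and Mcm4 passed in tumor, and all of them in neonates. Without all libraries numbered 3 the counts of lower subunits were 1 in tumor (Mcm2), 6 in anemia and 6 in neonates. The neonatal call of Mcm6 was lost without any of 6 single libraries.

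Of the 6 factors that turn the loaded ring into a running helicase, 3 were lower in tumor, 6 in anemia and 2 in neonates. These counts were 0, 5 and 2 without the libraries numbered 3, Gins4, Mcm10 and Gins1 losing their tumor calls. Gins4, the Sld5 subunit of GINS, read 11.7, 10.7 and 7.10 in tumor CD45+ and 17.3, 19.9 and 29.9 in tumor CD45- libraries. Its difference was similar in the 3 states, at -1.10 ± 0.31 (adjusted p = 0.0054), -1.10 ± 0.31 (0.0056) and -0.95 ± 0.31 (0.013). Mcm10, which helps to activate the helicase, was lower in tumor (-1.20, adjusted p = 0.014) and anemia (-1.96, adjusted p = 0.00038), and its neonatal value was -0.63 (adjusted p = 0.17). Gins1 was lower in tumor (-1.22) and anemia (-1.05). The tumor calls of Mcm10 and Gins1 were lost without tumor CD45+ replicate 3 alone, the Gins1 calls also without some other single libraries, and the neonatal call of Gins4 without neonatal CD45- replicate 1. Cdc45 and Gins2 passed in anemia, at -1.78 and -1.15 (Gins2 not without any single anemia CD45+ library or anemia CD45- replicate 3), against -0.57 and -0.27 in tumor and -0.38 and -0.17 in neonates. Gins3, the Psf3 subunit, was lower in anemia (-1.28, adjusted p = 0.0028) and neonates (-1.34, adjusted p = 0.002) but had a tumor value of -0.19 with a 95% interval of -0.88 to 0.49. These calls depend on the scaling. With either median-ratio factors or quantile normalization Gins3, Cdc45 and Gins2 passed as lower in tumor, and Cdc45, Mcm10 and Gins1 in neonates. Gins2 passed in neonates with quantile normalization only, and Cdc45 in tumor also without haemoglobin genes.

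Clamp and clamp loader genes moved apart from one another. Pcna, the sliding clamp, read 119.6, 116 and 99.0 in tumor CD45+ and 157, 196 and 325 in tumor CD45- libraries. It read 81.7, 101 and 108 against 176, 182 and 368 in anemia, and 116, 112 and 141 against 290.3, 289.9 and 192 in neonates. Groups did not overlap, and the log2 differences were -0.95 ± 0.32 (adjusted p = 0.016), -1.24 ± 0.32 (0.0031) and -1.04 ± 0.32 (0.0098). Rfc4, a small subunit of the clamp loader replication factor C, was lower in each state (-1.24, -1.83 and -1.11), although its tumor CD45- libraries spread from 16.4 to 58.2. The tumor calls of Pcna and Rfc4 were each lost without replicate 3 of either tumor fraction alone, and the neonatal call of Rfc4 without any of 4 single neonatal libraries. The 4 other loader subunits passed in no state as deposited. Rfc1, the large subunit, read 23.2, 21.6 and 24.2 in tumor CD45+ and 13.5, 16.3 and 35.8 in tumor CD45- libraries, so that CD45+ values lay between the low replicates 1 and 2 and the high replicate 3 of the CD45- cells. Its log2 differences were 0.19, 0.00 and 0.13 as deposited, with 95% intervals within -0.67 and 0.87, but -0.72, -0.85 and -0.77 with median-ratio factors, which passed. Rfc2 gave 0.40, -0.00 and 0.04, of which the neonatal value turned to -0.83 under median-ratio and -0.70 under quantile scaling. With median-ratio factors Rfc2 passed as lower in anemia and neonates. Rfc3 and Rfc5 lay between -0.08 and -0.72 as deposited and passed as lower in all 3 states under either scaling.

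All 4 genes of polymerase alpha and primase were lower in each state, and neither polymerase delta gene passed on the values as deposited; the difference between these enzymes was not tested. Pola1, the catalytic subunit of polymerase alpha, read 15.5, 13.6 and 12.0 in tumor CD45+ and 21.4, 28.4 and 50.7 in tumor CD45- libraries. Its differences were -1.14 ± 0.29 (adjusted p = 0.0026), -1.70 ± 0.29 (9e-05) and -0.94 ± 0.29 (0.01). The accessory subunit Pola2 (-0.87, -0.92 and -0.91), the catalytic primase subunit Prim1 (-1.23, -1.70 and -1.13) and its partner Prim2 (-0.86, -1.73 and -0.80) passed in all states. Pole, the catalytic subunit of polymerase epsilon, also passed in each (-1.01, -1.48 and -0.79). The tumor calls of Pole and Prim2 were lost without tumor CD45+ replicate 3, that of Prim2 also without tumor CD45- replicate 3. Their neonatal calls were lost without any of 3 single neonatal libraries each. Without all libraries numbered 3 the role had 3, 5 and 4 of 7 members lower, against 5 in each state with them. Pold1, the catalytic subunit of polymerase delta, read 19.4, 18 and 13.4 in tumor CD45+ and 11.8, 17.6 and 21.8 in tumor CD45- libraries. The CD45+ libraries lay inside the range of the CD45- libraries. The differences of Pold1 were 0.01 (95% interval -0.56 to 0.59), -0.11 (-0.69 to 0.46) and 0.01 (-0.56 to 0.58). Under median-ratio scaling they turned to -0.89 in tumor and -0.87 in neonates, and Pold1 passed as lower in all 3 states. Pold2 gave -0.50, -0.43 and -0.10, none of which passed. With median-ratio scaling it passed as lower in all 3 states (-1.38, -1.22 and -0.95), with quantile normalization in tumor and anemia, and without haemoglobin genes in tumor.

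Okazaki fragment enzymes were lower in tumor and anemia, and Lig1 also in neonates. Lig1, the ligase that seals the fragments, read 44.3, 41.7 and 19.7 in tumor CD45+ and 74.7, 92.5 and 123 in tumor CD45- libraries. It differed by -1.48 ± 0.32 (adjusted p = 0.00072), -1.95 ± 0.32 (5.9e-05) and -1.41 ± 0.32 (0.0012), with no overlap in any state. Fen1, the nuclease that trims the flaps between fragments, differed by -1.18 (adjusted p = 0.0042) and -2.28 (1.2e-05), against -0.57 (0.13) in neonates. With median-ratio factors, with quantile normalization or without haemoglobin genes it passed as lower in neonates too. In GENCODE vM21 up to 1908 bases of Fen1 exons lie opposite exons of Tmem258 or Gm10143. Such opposite-strand overlap holds for 13 members, with a longest stretch of 2758 bases for Gins2 but only 179 for Orc1 and 52 for Cdc45. Strand use in the counting is not given in the sources used here. Reads within these stretches therefore cannot be told from those of the partner genes.

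In RPA the 2 larger subunits were lower in each state, and the smallest passed in none on the values as deposited. Rpa2 read 22.2, 11.2 and 10.5 in tumor CD45+ and 30.4, 29.3 and 39.3 in tumor CD45- libraries, a difference of -1.19 ± 0.36 (adjusted p = 0.009), with -1.36 in anemia and -1.32 in neonates. Rpa1, the main DNA-binding subunit, differed by -1.04, -0.83 and -1.04, and its anemia p of 0.045 became 0.05 with the replicate block and no longer passed (0.00014 to 0.19 over 29 alternatives). Its tumor call was lost without tumor CD45- replicate 3 and its neonatal call without any of 3 single neonatal libraries. Rpa3, the smallest subunit, read 16.6, 13.8 and 12.3 in tumor CD45+ and 5.56, 7.68 and 16.7 in tumor CD45- libraries. Its tumor value of 0.59 was the most positive of the members (95% interval -0.19 to 1.38), and without tumor CD45- replicate 3 it passed as higher. That setting left 16 members lower in tumor-bearing mice. Rpa3 gave -0.87 (adjusted p = 0.054) in anemia, a value more negative than the -0.83 of Rpa1, and -0.47 (0.28) in neonates. It passed as lower in anemia with either scaling or without haemoglobin genes, and in neonates with either scaling; the difference between subunits was not tested.

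Nucleotide enzymes held the most negative differences in anemia and neonates. Tk1, the thymidine kinase of S phase, read 27.9, 31.6 and 9.45 in tumor CD45+ and 49.3, 49.5 and 93.8 in tumor CD45- libraries, and 13.2, 15.3 and 7.18 against 85.3, 85.4 and 82.3 in anemia. Its differences were -1.54 ± 0.42 (adjusted p = 0.0047), -2.79 ± 0.42 (2.7e-05) and -1.65 ± 0.42 (0.0029). Tyms, thymidylate synthase, read 14.2, 14.0 and 6.73 against 27.9, 34.9 and 39.8 in tumor-bearing mice and differed by -1.53, -2.31 and -1.46. Rrm2, the small subunit of ribonucleotide reductase that is made in S phase, differed by -1.84, -2.65 and -2.31. Rrm1, its large partner, was lower in tumor (-1.07) and anemia (-2.04) and read -0.88 (adjusted p = 0.063) in neonates. Its tumor call was lost without tumor CD45+ replicate 3 or tumor CD45- replicate 2 or 3. Without all libraries numbered 3 it passed in neonates and not in tumor. Pseudogenes named after Pcna and Tyms are annotated, so reads could be shared with these copies.

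**Figure D3:**
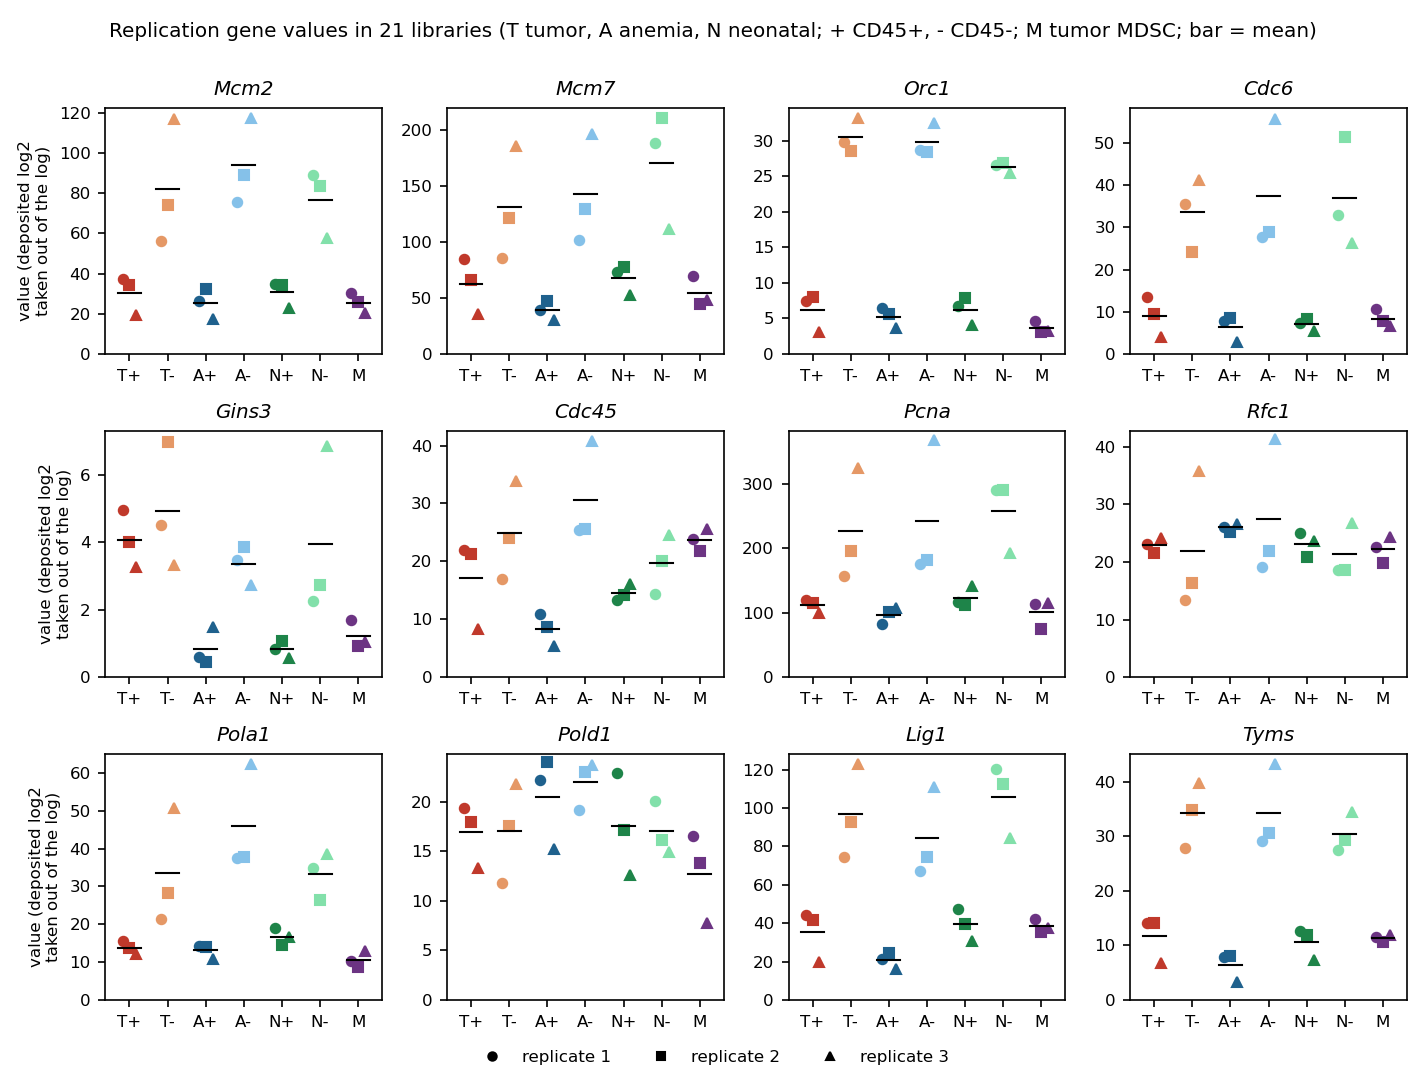
Values of 12 members in each library (deposited log2 taken out of the log, linear axes from 0), by group; points are replicates and bars the group means. CD45- groups sit above CD45+ groups and MDSC for Mcm2, Mcm7, Orc1, Cdc6, Pcna, Pola1, Lig1 and Tyms, whereas Rfc1 and Pold1 do not separate. Gins3 is higher in tumor CD45+ cells than in the other CD45+ groups and MDSC, within the range of the CD45- libraries.

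Between states the CD45+ cells differed in few members. Gins3 was the 1 member that passed between tumor and anemia CD45+ cells (5.82% of all genes were higher) and between tumor and neonatal CD45+ cells (2.2% higher). That is 2.56% of the members, below the first of these shares and near the second. Gins3 read 4.96, 4.01 and 3.26 in tumor CD45+ libraries, 0.59, 0.44 and 1.48 in anemia and 0.84, 1.08 and 0.55 in neonates. Every tumor library lay above every other CD45+ library, by a log2 difference of 1.49 ± 0.32 (limma adjusted p = 0.006) and 1.47 ± 0.32 (0.0091). Both calls held in all 29 alternatives, with adjusted p up to 0.041 and 0.045. These comparisons share the tumor CD45+ libraries. In CD45- cells Gins3 read 4.52, 6.99 and 3.32 in tumor, 3.48, 3.85 and 2.72 in anemia and 2.27, 2.73 and 6.86 in neonates, which overlap. The CD45 contrast of Gins3 was 1.14 ± 0.46 higher in tumor than in neonatal mice, with a raw p of 0.024 and an adjusted p of 0.38, so the difference between contrasts did not pass. The annotation places no opposite-strand exon on Gins3.

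The remaining members lay between -0.29 (Gins4) and 0.92 (Rrm1) for tumor minus anemia and between -0.60 (Mcm10) and 0.54 (Rrm2) for tumor minus neonatal CD45+ cells. A median of 0.35 over the 39 members stood beside -0.03 over all genes for tumor minus anemia, and -0.10 beside -0.02 for tumor minus neonates. The tumor CD45+ libraries differ widely among themselves: Cdc45 read 21.9, 21.3 and 8.37 in tumor against 10.9, 8.70 and 5.35 in anemia CD45+ cells. Leaving out tumor CD45+ replicate 3 raised the count of higher members against anemia from 1 to 9, and leaving out all libraries numbered 3 raised it to 13, among them Cdc45, Mcm5, Lig1, Rrm1, Tyms and Tk1. Against neonates the count stayed at 1 without those libraries. For these settings the share of all genes called is not given, so the counts have no background beside them. In tumor CD45+ against anemia CD45+ cells all 12 neutrophil markers were higher, and the part of that difference in these values was not tested.

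Anemia CD45+ cells were below neonatal CD45+ cells for 3 of 39 members, or 7.69%, where 11.3% of all genes were lower. That count does not exceed the share of all genes. Mcm10 read 8.38, 8.39 and 4.07 in anemia and 17.6, 29.3 and 12.6 in neonates (-1.37 ± 0.39, limma adjusted p = 0.019). Fen1 read 3.74, 3.92 and 5.13 against 8.18, 10.2 and 10.9 (-1.03 ± 0.32, adjusted p = 0.03). Pole differed by -0.90 ± 0.30 (adjusted p = 0.043), and the most positive member was Rfc2 at 0.28. Anemia libraries lay wholly below neonatal ones for 18 members, against 22.2% of all genes. Without the libraries numbered 3 this held for 27 members. With fewer libraries that is easier to reach, and the share of all genes was not counted in that setting. The count of members called was 5 without tumor CD45+ replicate 3 and 1 without any single anemia CD45+ library. It was 0 without neonatal CD45+ replicate 2, and 15 without all libraries numbered 3. No share of all genes called is given for these settings. The median of the members was -0.48, that of all genes -0.03. In these anemia libraries 10 of 12 neutrophil markers were lower and 7 of 7 B cell markers higher than in the neonatal ones.

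Between the CD45- cells of the 3 states no member passed the test. Anemia libraries lay wholly above the neonatal ones for 3 members, Fen1, Cdc45 and Orc1, where this held for 8.27% of all genes. Tumor libraries lay wholly above the neonatal ones for Orc1 alone, where this held for 4.08% of all genes. Neither count exceeds the share of all genes. Limma called 0 members between tumor and anemia (0.152% of all genes called; 1 member at an unadjusted p below 0.05), 0 between tumor and neonates (2.54%; 0 members) and 0 between anemia and neonates (4.34%; 1 member). Rpa3 was the most negative for tumor minus anemia (-1.05) and tumor minus neonates (-0.69), and Gins3 the most positive (0.41 and 0.33). For anemia minus neonates the extremes were Cdt1 (-0.61) and Fen1 (0.68). Without the libraries numbered 3 the counts were 2 (Rpa3 and Tk1, lower in tumor), 10 (9 of them lower in tumor than in neonates) and 12 (11 lower in anemia than in neonates), the last pair including Mcm3, Mcm5, Mcm6, Mcm7, Cdt1 and Pcna. No share of all genes called is given beside these counts. In neonatal CD45- cells replicate 3 was low where it was high in the other CD45- groups, as with Mcm7 at 189, 211 and 112.

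The CD45 contrast itself differed between anemia and neonates for Fen1. The contrast was more negative in anemia, with an anemia minus neonatal difference of -1.71 ± 0.45 (limma adjusted p = 0.029), where 2.8% of all genes were lower by this interaction. Fen1 read 41.6, 21.3 and 16.3 in anemia CD45- libraries against 3.74, 3.92 and 5.13 in CD45+, and 14.0, 16.1 and 14.5 against 8.18, 10.2 and 10.9 in neonates. Replicate 1 of anemia CD45- was thus far above the other CD45- libraries of that group. The call held in 21 of 29 alternatives, with adjusted p from 0.0085 to 0.072. It was lost with median-ratio factors and without any of anemia CD45+ replicate 1 or 2, anemia CD45- replicate 1, neonatal CD45+ replicate 2 or 3, or neonatal CD45- replicate 1 or 3; without tumor CD45+ replicate 3, Cdc45 passed as well. For tumor minus anemia 0 members passed (2.2% of all genes called; 5 members at an unadjusted p below 0.05), with values from -0.21 (Rpa1) to 1.46 (Rpa3), and 2 passed without tumor CD45+ replicate 3. For tumor minus neonates 0 passed (1.08%; 1 member), with values from -0.62 (Fen1) to 1.14 (Gins3). Without all libraries numbered 3 these counts were 3, 9 and 4, with no share of all genes called given beside them.

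**Figure D4:**
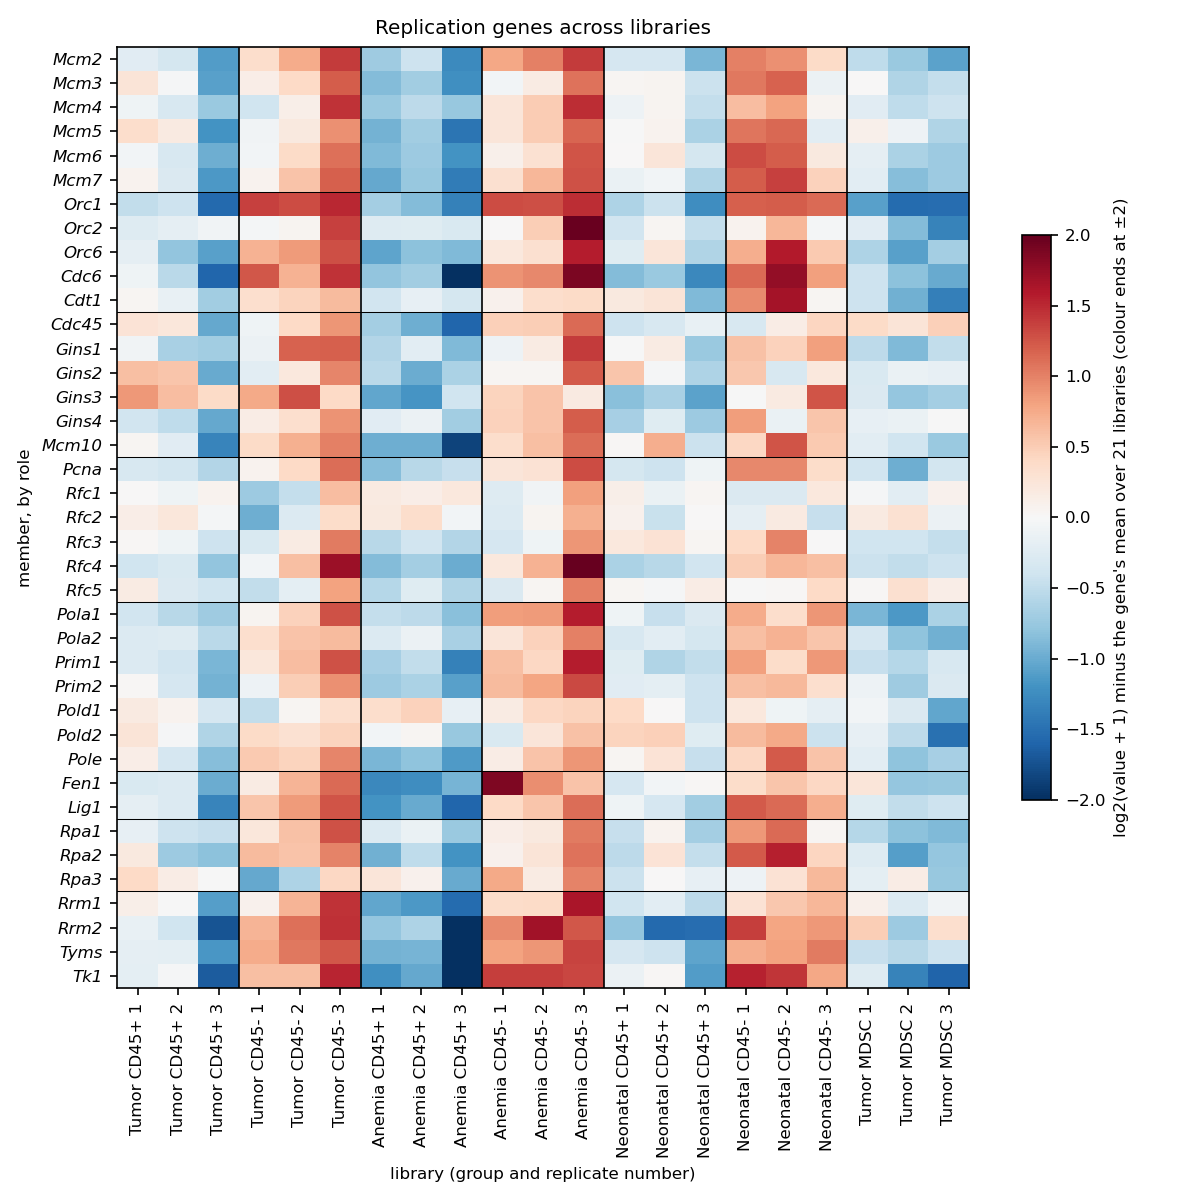
Log2(value + 1) of each of the 39 members minus its mean over the 21 libraries, by role (rows) and library (columns); colour ends at -2 and 2. Red CD45- columns stand beside blue CD45+ and MDSC columns for most rows, the columns of replicate 3 are the darkest in tumor and anemia, and the rows of Rfc1, Rfc2 and Pold1 stay pale.

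MDSC, a myeloid population, held replication genes at levels near those of tumor CD45+ cells. Between tumor CD45+ cells and MDSC 1 of 39 members passed and was higher, or 2.56%, where 5.42% of 10255 genes were higher. The members' median difference was 0.11 against 0.16 for all genes. Of the markers, 9 of 10 tested erythroid and 7 of 7 B cell genes were higher in tumor CD45+ cells than in MDSC. The member that passed was Gins3, at 1.69, 0.92 and 1.04 in MDSC (1.20 ± 0.29, limma adjusted p = 0.035). The groups did not overlap, but the call held in only 9 of 20 alternatives (adjusted p 0.02 to 0.16) and was lost without any single tumor CD45+ or MDSC library and without tumor CD45- replicate 1. Rrm2 was the most negative at -0.79 ± 0.45 (adjusted p = 0.33), with 157, 66.5 and 140 in MDSC. A p above the threshold does not show equal levels: for Mcm2 the difference was 0.21 ± 0.33 and for Cdc45 -0.55 ± 0.36.

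Against tumor CD45- cells the picture was that of the CD45 contrast, with which this comparison shares its CD45- libraries. In tumor CD45- cells 24 members were higher than in MDSC and 0 lower, where 14.3% of all genes were higher and 42.1% lower. Orc1 read 4.65, 3.13 and 3.17 in MDSC, a difference of 2.77 ± 0.31 (limma adjusted p = 1.9e-05), and Tk1 and Cdc6 followed at 1.98 and 1.88. Values were -0.41 for Rfc2 and -0.15 for Rfc1 and Rpa3. Without the libraries numbered 3, 21 members were higher and Rfc1, Rfc2 and Rpa3 were lower. Cdc45 did not follow the other members, at 23.9, 21.7 and 25.5 in MDSC beside 16.9, 24.0 and 33.9 in tumor CD45- cells (0.02 ± 0.36).

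Genes around the replication machinery, from lists of the wider pathway, are given beside the shares of all genes in the same contrasts, 50.2% higher and 10.9% lower in tumor, 47.4% and 11.3% in anemia, 49.6% and 10.3% in neonates. In tumor-bearing mice 12 of 33 other tested replication genes were lower in CD45+ cells and 4 higher, with 19 and 3 in anemia and 11 and 4 in neonates. These counts became 8 and 6, 18 and 4, and 14 and 5 without the libraries numbered 3. The higher ones included Pold4, the small accessory subunit of polymerase delta, at 7.04, 10.3 and 14.6 in tumor CD45+ against 1.62, 0.56 and 0.95 in tumor CD45- libraries (2.49 ± 0.35, limma adjusted p = 1.2e-05), and 3.20 and 2.32 in anemia and neonates. Mcmbp, an MCM-binding protein, was higher by 2.07, 1.24 and 1.90, the anemia value falling to 0.41 and below the threshold with median-ratio scaling. Pold4 passed as higher in all states under both scalings too. Of 22 further nucleotide genes 8 were higher and 2 lower in tumor (5 and 4 in anemia, 9 and 1 in neonates), shares of higher genes below those of all genes, and the list's median in tumor of 0.66 lay near the 0.75 of all genes. With replicates 3 left out 16 were higher and 1 lower in tumor, 9 and 1 in anemia, and 11 and 0 in neonates. The higher genes included Impdh1, a rate-limiting enzyme of guanine nucleotide synthesis (2.86, 2.60 and 3.12), and Shmt1, a serine hydroxymethyltransferase of one-carbon metabolism (2.45, 1.35 and 2.12, the anemia value 0.11 and not passing with quantile normalization).

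Of 13 E2F and pocket protein genes 8 were lower and 2 higher in tumor (10 and 2 in anemia, 9 and 2 in neonates). E2f4, a mainly repressive E2F with a known part in erythroid proliferation, was lower, at -2.03, -1.76 and -2.03, and Rbl2, the pocket protein p130 of resting cells, was higher by 1.90, 1.66 and 1.11, the neonatal value not passing with either scaling (0.24 and 0.49). With replicates 3 left out 9 of the list were lower and 4 higher in tumor, with the other states as before. Among 16 tested G1/S cyclin and kinase genes 5 were lower and 3 higher in tumor (7 and 4, 6 and 5 in the other states), and 5 and 5, 9 and 5, and 7 and 6 without the libraries numbered 3. Ccna2, cyclin A2, was lower in CD45+ cells, at -2.14, -2.76 and -2.27, whereas Cdk6, a G1 kinase, was higher in tumor (2.53) and neonates (3.05) and had a value of 0.46 (adjusted p = 0.42) in anemia, where it passed at 1.30 without the libraries numbered 3.

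Mitosis genes had the members' direction, with 18, 20 and 14 of 20 lower and 0 higher in tumor, anemia and neonates, for example Mki67, the proliferation antigen (-2.44, -2.79 and -2.29), and Birc5, survivin (-2.07, -2.47 and -1.82). Leaving out replicates 3 gave 18, 20 and 18 lower. Chromatin assembly genes were lower for 5, 7 and 4 of 12 and higher for 0, with Uhrf1, the maintenance methylation factor (-1.73 in tumor), and Slbp, which binds histone mRNA (-1.62), as examples. Leaving out replicates 3 gave 4, 8 and 7 lower and 2, 1 and 0 higher. Of 16 genes for replication stress and fork repair 7 were lower and 1 higher in tumor (11 and 2, 6 and 2 in the other states), and 6 and 3, 11 and 3, and 6 and 1 without those libraries, with the helicase gene Blm at -2.30 and the checkpoint kinase gene Chek2 at -2.10.

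Over the 21 libraries most members followed one another. The correlation of a member with the mean of the other members was highest for Mcm7 (0.98) and Mcm2 (0.98) and lowest for Rfc2 (0.06), Rfc1 (0.09), Pold1 (0.40), Rpa3 (0.47) and Gins3 (0.55). Among non-members the 10 genes most like the mean of the members were Ccne1 (0.96), Recql4 (0.96), Cenpk (0.95), Phf10, Pask, Clspn, Rad51ap1, Trim37, Atad2 and Wdhd1 (0.94). Ccne1, cyclin E1, had means of 12.5 ± 4.4, 9.43 ± 3.5 and 9.91 ± 3.8 (SD, n = 3) in tumor, anemia and neonatal CD45+ cells, 47.9 ± 15, 51.5 ± 23 and 47.7 ± 7.0 in the CD45- cells, and 11.5 ± 2.6 in MDSC. Clspn, Recql4 and Wdhd1 act at the replication fork and stand on the wider replication list. These correlations describe 21 points that share library, replicate number and haemoglobin share and carry no test.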

How the data were processed

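RNA-seq values of 39 genes were read from a table of log2 expression values with a column for each of 21 libraries. The values were already log2 when the authors deposited them. Per the submitters' processing notes, reads were aligned with Bowtie 0.12.2 to mm8; the quantification, the scale behind the log and strand use are not given in the sources used here. Blank cells (7.9% of the table, 0 among the members) were taken as 0, and where a symbol was repeated (8 cases) only its highest entry by mean kept the name. Columns were assigned to samples by name.

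Values were taken out of the log, 1 was added and log2 taken. Genes reaching 1 in 3 or more libraries of a fit were tested with limma 3.58.1 (R 4.3.3, statmod 1.5.0; trend and robust options) with a mean per group, in a fit of the 18 Ter119+CD71+ libraries (11195 genes) and a fit of the 9 tumor libraries (10255 genes) for MDSC. Tests were two-sided, with Benjamini-Hochberg adjustment over all tested genes at 0.05, and the scripts were tested on simulated data. The table gives no depth, so the counting error of single values is unknown and the precision given is that of the spread between libraries.

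Groups share replicate numbers. Deviations from the group means of same-numbered libraries correlated at over 0.1 for every number in the 3 CD45 contrasts (0.109 to 0.362), in tumor against neonatal CD45+ cells (0.106 to 0.384) and in tumor CD45+ cells against MDSC (0.166 to 0.322), but not in the other comparisons. This pairing comes from the data, not from the labels.

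The members and gene lists were chosen with earlier results of these data known. Named in full were the members of each role with the smallest adjusted p in the tumor CD45 contrast, the extremes of each comparison, members against the main direction, the 10 genes most correlated with the members' mean, and the 2 genes per pathway list with the smallest adjusted p. Members named beyond this were chosen after their values were seen. Alternatives were other pseudocounts, no filter, 2 scalings, haemoglobin genes left out, a replicate block, a joint fit, genes with blanks left out, plain limma, each library left out, and all libraries numbered 3 left out (added later). Promoter windows came from RefSeq (GRCm38.p6) and exon overlaps from GENCODE vM21, matched by symbol; no coordinate of the authors' build was used.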

Additional observations from a re-analysis of the deposited data

Results flagged for a closer look

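Fen1 was singled out because its CD45 contrast differed between 2 states by a test of the difference itself. The contrast was more negative in anemia than in neonatal mice, by a difference of -1.71 ± 0.45 (SE, n = 3 per group; limma interaction, adjusted p = 0.029). That 1 of 39 members passed, or 2.56%, stands beside 2.8% of all genes lower by this interaction. The call held in 21 of 29 alternatives and was lost with median-ratio factors and without any of several single libraries. All 3 anemia CD45- libraries (41.6, 21.3 and 16.3) lay above all 3 neonatal CD45- libraries (14.0, 16.1 and 14.5), though 16.3 and 16.1 are close. All 3 anemia CD45+ libraries lay below the neonatal ones. The part of the genes that overlap Fen1 on the opposite strand in this difference was not tested.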

How the results depend on the processing

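In the 3 CD45 contrasts no member passed as higher, except Rpa3 in tumor-bearing mice without tumor CD45- replicate 3 and Rfc1, Rfc2 and Rpa3 there without all replicates 3. Counts of lower members in tumor, anemia and neonatal mice were 37, 39 and 38 with median-ratio scaling and 34, 36 and 32 with quantile normalization. They were 31, 34 and 28 without haemoglobin genes, and 23, 30 and 22 with the replicate block. The block removed the calls of Mcm6 (tumor) and Rpa1 (anemia). It changed no other call in the comparisons where same-numbered libraries correlated at over 0.1 for every number. Leaving out 1 library gave 15 to 25, 26 to 33 and 15 to 24 calls. It gave 1 to 9 for tumor against anemia CD45+, 0 to 5 for anemia against neonatal CD45+, 0 to 2 for the difference of the CD45 contrast between tumor and anemia and also between anemia and neonates, 0 to 1 for tumor CD45+ against MDSC, and 19 to 29 for tumor CD45- against MDSC.

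For anemia against neonatal CD45+ cells 1 member passed with pseudocount 5, with median-ratio scaling or without haemoglobin genes. The Fen1 interaction gave 0 calls with median-ratio scaling. Tumor CD45+ against MDSC gave 0 with pseudocount 5 and with either scaling. Without all replicates 3 together, calls were 19, 28 and 25 in the CD45 contrasts, 13, 1 and 15 between CD45+ states (tumor against anemia, tumor against neonatal, anemia against neonatal), 2, 10 and 12 between CD45- states, 9, 4 and 3 for the differences of contrasts, and 0 and 24 against MDSC. Fewer libraries entered these fits, the share of all genes called is not given for them, and the cause was otherwise not tested. Reversed values with median-ratio scaling were Rfc1 at -0.72, -0.85 and -0.77, Pold1 at -0.89 (tumor) and -0.87 (neonatal), and Rfc2 at -0.83 (neonatal; -0.70 by quantile). Mcm3 turned to 0.91 for the CD45 contrast of tumor minus neonatal without replicates 3. With no read depth in the table, members with low values such as Gins3 carry a counting error that cannot be given.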
